A study of Mus musculus with 24 samples.

Results

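Reactive astrocyte genes are described here as 10 genes chosen by symbol: Gfap, Serpina3n, Vim, Cd44, Osmr, Lcn2, Steap4, S1pr3, Timp1 and Cp. All 10 were found among the 54532 genes of the deposited count table. The libraries came from mouse striatum, the forebrain region most affected in Huntington's disease, and each of the 24 libraries was labelled as an animal of its own. All animals were on the C57BL/6 strain. The 4 genotypes were WT, TyrobpKO (Tyrobp deleted), Q175 (heterozygous for the Q175 allele, a knock-in that lengthens the glutamine repeat of huntingtin) and Q175_TyrobpKO (heterozygous for Q175, with Tyrobp deleted). Each genotype had 6 animals, 3 male and 3 female, and the libraries are numbered here with the males first. Age is not given in the labels used here. Tyrobp encodes an adaptor of microglial receptors, and the labels name no cell type or promoter that would limit its deletion. The animal numbers carry a prefix that follows genotype: both genotypes with the deletion shared one, while Q175 had another that only 1 of the 6 WT animals had. Any colony difference the prefix marks therefore cannot be told apart from Tyrobp genotype, and only in part from Q175 genotype where Tyrobp is intact. Q175_TyrobpKO and TyrobpKO shared theirs.

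Astrocytes respond to injury and disease in nearby cells by enlarging their intermediate filament network and by secreting protease inhibitors, lipocalins and other acute-phase proteins. Signals that drive this state include cytokines that act through the shared receptor chain gp130 and the transcription factor STAT3, and products of activated microglia. In the healthy striatum, GFAP is sparse in grey-matter astrocytes and denser in astrocytes of white matter bundles and those near the ventricle.

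STAT3 is a known regulator of this group, so promoters are printed for Gfap and Serpina3n, the genes called below, and for Steap4, the other gene with a STAT match, on which no result below turns. Sequences are from RefSeq on GRCm38.p6, which holds a window of 250 bases before to 50 after the start for all 10 genes. Capitals mark a match to TTCNNNGAA, the core of a STAT site, searched on both strands. In Gfap (chr11:102897194-102897450, minus strand, cut after the match) the match began 2 bases before the RefSeq start. Only 7 bases of this stretch lie in a Gfap exon of the annotation GENCODE M21, and the rest lies within an intron of a longer Gfap transcript and within the span of Gm26668 on the other strand. In Steap4 (chr5:7960222-7960471, plus strand) the match began 116 bases before the start. There 98 bases lie in exons of Steap4 or of the antisense gene Gm30835. The Serpina3n stretch (chr12:104406458-104406707, plus strand) is outside all annotated transcripts and had no match.
Gfap: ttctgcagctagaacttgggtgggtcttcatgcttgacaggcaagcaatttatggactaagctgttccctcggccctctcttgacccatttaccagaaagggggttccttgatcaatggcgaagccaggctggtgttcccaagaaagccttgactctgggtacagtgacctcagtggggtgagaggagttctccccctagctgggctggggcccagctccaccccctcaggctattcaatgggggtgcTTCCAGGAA
Steap4: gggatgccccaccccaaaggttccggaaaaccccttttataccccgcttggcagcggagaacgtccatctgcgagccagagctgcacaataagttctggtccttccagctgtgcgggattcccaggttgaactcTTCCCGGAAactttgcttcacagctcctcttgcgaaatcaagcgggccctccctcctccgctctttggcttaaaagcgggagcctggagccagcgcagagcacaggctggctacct
Serpina3n: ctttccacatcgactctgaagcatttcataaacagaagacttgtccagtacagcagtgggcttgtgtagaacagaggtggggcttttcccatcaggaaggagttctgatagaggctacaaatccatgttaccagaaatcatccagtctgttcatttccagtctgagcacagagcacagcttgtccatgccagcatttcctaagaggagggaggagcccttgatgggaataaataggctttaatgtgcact
The STAT letters were present in a window of 2 of the 10 genes, beside 9.55% of the 27025 genes with a RefSeq promoter window. The AP-1 letters TGANTCA were present in Osmr and Cp, and in 8.97% of all these genes. The NF-kB consensus motif, searched likewise, was present in none of the 10 and in 0.466% of all these genes. These are matches of letters in a window, not measured binding.

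Total counts ranged from 25.5 to 34.6 megacounts per library (median 28.0). Tyrobp was at 7.88 ± 1.15 CPM (SD, n = 6) in WT and 8.68 ± 2.10 CPM in Q175, against 0.341 ± 0.0926 CPM in TyrobpKO and 0.260 ± 0.0423 CPM in Q175_TyrobpKO. CPM are counts relative to library size, scaled between libraries by edgeR's TMM method. All 20 homeostatic astrocyte markers and all 10 striatal projection neuron markers listed passed the filter on low counts. A list of 12 choroid plexus markers, genes of the secretory tissue inside the ventricles, stood over 200 CPM in 5 libraries: Q175 replicates 3 (4274 CPM) and 5 (487 CPM), and Q175_TyrobpKO replicates 2 (216 CPM), 4 (587 CPM) and 6 (616 CPM). The other 19 libraries were at or below 137 CPM. That limit was set after the values were seen, and results that rest on these libraries are given with and without them.

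Of the 10 genes, 9 passed the filter, which left 19667 genes to test. Per kilobase of exon, Gfap had the highest mean level of the 10, at 34.9 CPM per kb over the 24 libraries, higher than in 93.8% of tested genes. Vim followed at 5.80 and Serpina3n at 3.88 CPM per kb. Cp at 1.41, S1pr3 at 1.37 and Timp1 at 1.27 CPM per kb were within 1 SD of each other. Cd44 at 0.379 and Osmr at 0.367 CPM per kb were also within 1 SD of each other. Steap4 at 0.0901 and Lcn2 at 0.0457 CPM per kb were near the limit of what these libraries measured.

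With Tyrobp intact, the Q175 allele was accompanied by higher Gfap and Serpina3n, and by no called change in the other 7 tested genes. In Q175 against WT, 2 of the 9 tested genes were called higher at an edgeR adjusted p under 0.05 and 0 were called lower, beside a background of 4.15% of all tested genes called higher and 9.63% called in either direction. The median log2 change of the 9 was 0.26, with 7 above 0, beside a median of 0.007 over all tested genes. In Q175_TyrobpKO against Q175 both genes were lower in every library than in any Q175 library, but edgeR called neither. Groups parted in that direction for 0.300% of tested genes. That comparison shares its Q175 libraries with the first, so the opposite directions are not independent of each other. The WT library that shares the Q175 prefix, replicate 3, was at 150 CPM of Gfap and 5.80 CPM of Serpina3n. Both values were within the range of the other WT libraries and below every Q175 library. No other WT library has that prefix, so its part in the Gfap and Serpina3n values was not tested.

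**Figure D1:**
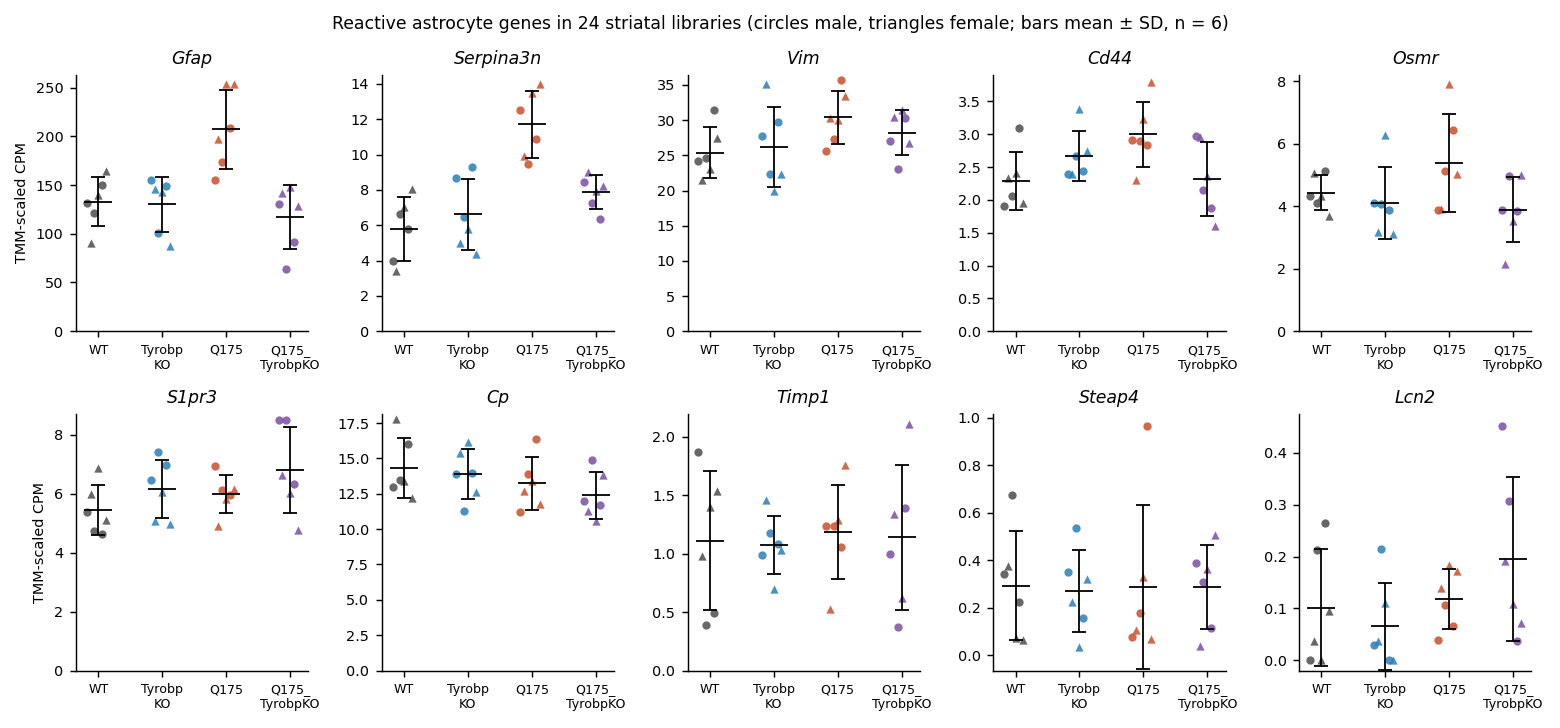
Level of each of the 10 genes in every library (TMM-scaled CPM, linear axes), by genotype, with circles for males and triangles for females. Bars show the mean ± SD of the 6 libraries, and axes start at 0 except where a bar reaches below it. Gfap and Serpina3n are highest in Q175, where Gfap lies between 155 and 254 CPM and Serpina3n between 9.48 and 14.0 CPM.

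Gfap encodes the intermediate filament protein that defines astrocytes histologically (ENSMUSG00000020932, chr11:102887336-102900912, minus strand). It ranged from 90.9 to 164 CPM in WT with a median of 136, and from 87.9 to 155 CPM in TyrobpKO with a median of 145. In Q175 it ranged from 155 to 254 CPM with a median of 203. In Q175_TyrobpKO it ranged from 64.1 to 148 CPM with a median of 130. Q175 thus stood above the other 3 genotypes: 5 of its 6 libraries were above the highest WT library and all 6 were above every Q175_TyrobpKO library. WT, TyrobpKO and Q175_TyrobpKO overlapped, with means of 133 ± 25.4, 130 ± 28.4 and 118 ± 32.8 CPM (SD, n = 6 each) against 207 ± 40.7 CPM in Q175.

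Gfap rose 1.54-fold in Q175 against WT (log2 0.63 ± 0.19 SE), with an edgeR adjusted p of 0.0425. This call was close to the threshold: leaving out a library ended it in 9 of 24 cases, namely WT replicate 1, 2, 4 or 5, Q175 replicate 2, 3, 5 or 6, or Q175_TyrobpKO replicate 6, with log2 changes from 0.52 to 0.69 and edgeR adjusted p from 0.0201 to 0.0878 over the 24. Without the 5 libraries high in choroid plexus markers the log2 change was 0.54 and the edgeR adjusted p 0.145. With the mean of those markers as a covariate they were 0.56 and 0.124. In the 3 males against 3 males the estimate was 0.42 ± 0.26 and in the females 0.83 ± 0.26, and edgeR did not call the difference between the sexes (0.42 ± 0.37, adjusted p = 1.0).

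Gfap in Q175_TyrobpKO was 0.565 times its Q175 level (log2 −0.82 ± 0.19), with an unadjusted p of 0.000346 and an edgeR adjusted p of 0.151. The groups did not overlap, which held in that direction for 0.300% of tested genes. By DESeq2 the same change was −0.83 with an adjusted p of 0.00352, and by limma-voom −0.85 with 0.0376, so the call depended on the tool. Without the 5 libraries it was −0.64 with an edgeR adjusted p of 0.983 and an unadjusted p of 0.0188. Against TyrobpKO, Gfap in Q175_TyrobpKO differed by −0.17 ± 0.19 (edgeR adjusted p = 0.707). The interaction term, which asks whether the Q175 change differs between Tyrobp genotypes, was −0.80 ± 0.27 with an unadjusted p of 0.00779 and an edgeR adjusted p of 0.999.

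Vim encodes vimentin, another intermediate filament protein, which co-assembles with GFAP in reactive astrocytes and is also made by vessel and ependymal cells (ENSMUSG00000026728, chr2:13573927-13582826). It ranged from 21.5 to 31.5 CPM in WT (median 24.4), from 20.0 to 35.1 in TyrobpKO (25.0), from 25.6 to 35.7 in Q175 (30.2) and from 23 to 31.5 in Q175_TyrobpKO (28.7). All 4 genotypes overlapped. The change in Q175 against WT was 0.26 ± 0.12 on the log2 scale, with an unadjusted p of 0.0405 and an edgeR adjusted p of 0.194. In Q175_TyrobpKO against Q175 it was −0.11 ± 0.12 (edgeR adjusted p = 0.894). Of 6 listed filament partners such as Nes, Synm and Plec, all tested, none was called in either of these comparisons. The shares of all tested genes called there were 9.63% and 0.158%. Pkp2, a plakophilin that links filaments to cell junctions, rose by 0.56 ± 0.13 in Q175_TyrobpKO against TyrobpKO (edgeR adjusted p = 0.00625).

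Serpina3n encodes a secreted serine protease inhibitor, an acute-phase protein of astrocytes and other cells (ENSMUSG00000021091, chr12:104406729-104414329). It ranged from 3.39 to 8.04 CPM in WT (median 6.21) and from 4.39 to 9.32 in TyrobpKO (median 6.13). In Q175 it ranged from 9.48 to 14.0 CPM, with a median of 11.7. In Q175_TyrobpKO it ranged from 6.34 to 9.02 CPM, with a median of 8.10. No Q175 library overlapped any library of the other 3 genotypes, and those 3 overlapped each other. Mean levels (SD, n = 6 each) were 11.7 ± 1.89 CPM for Q175, 7.88 ± 0.948 for Q175_TyrobpKO, 6.61 ± 1.99 for TyrobpKO and 5.81 ± 1.81 for WT.

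Serpina3n rose 2.01-fold in Q175 against WT (log2 1.01 ± 0.19), with an edgeR adjusted p of 0.00105. Groups that did not overlap, with Q175 higher, made up 1.69% of tested genes. The change was 1.0 in males and 1.01 in females. It was called after leaving out any single library (0.90 to 1.14) and without the 5 libraries high in choroid plexus markers (0.98, edgeR adjusted p = 0.0159). In Q175_TyrobpKO against Q175 Serpina3n was at −0.57 ± 0.19, with an unadjusted p of 0.00571 and an edgeR adjusted p of 0.642. DESeq2 and limma-voom gave adjusted p of 0.307 and 0.510. Without the 5 libraries the change was −0.62, with an unadjusted p of 0.0389 and an edgeR adjusted p of 0.983. The interaction term was −0.75 ± 0.27 (unadjusted p = 0.0103, edgeR adjusted p = 0.999). By sex it was −1.15 ± 0.33 in males and −0.28 ± 0.33 in females, a difference of 0.87 ± 0.47 (edgeR adjusted p = 0.919). Q175_TyrobpKO differed from TyrobpKO by 0.26 ± 0.19 (edgeR adjusted p = 0.537) and from WT by 0.44 ± 0.19 (0.174). Against TyrobpKO the change was −0.15 ± 0.23 in males and 0.73 ± 0.24 in females. Those sexes differed by 0.88 ± 0.33 (unadjusted p = 0.0142, edgeR adjusted p = 0.960).

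The Serpina3 genes form a cluster of near-identical copies, so reads can be shared among them. All 10 listed paralogues of Serpina3n were under the filter, 3 of them had 0 reads, and their sum was at most 1.20 CPM in any library. In TyrobpKO against WT, Serpina3n was at 0.58 ± 0.24 in males and −0.29 ± 0.24 in females on the log2 scale. The difference between the sexes was −0.87 ± 0.34 (female minus male), with an unadjusted p of 0.0167 and an edgeR adjusted p of 0.502.

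Timp1 encodes a secreted inhibitor of metalloproteinases (ENSMUSG00000001131, chrX:20870166-20874735, plus strand). It ranged from 0.391 to 1.87 CPM in WT (median 1.19), 0.698 to 1.46 in TyrobpKO (1.06), 0.523 to 1.76 in Q175 (1.24) and 0.376 to 2.11 in Q175_TyrobpKO (1.17). The genotypes overlapped throughout, and Q175 against WT gave 0.11 ± 0.36 (edgeR adjusted p = 0.902). Timp1 lies wholly inside the span of Syn1, a synaptic vesicle gene on the other strand, and shares no exonic base with it. Use of strand in counting is not given in the sources used here, and Syn1 stood at 279 ± 38.0 CPM in WT, so its part in the Timp1 counts was not tested. Among 9 tested metalloproteinases and inhibitors, Timp2 rose in Q175 (0.47 ± 0.06, edgeR adjusted p = 3.40e-06) while Mmp17 (−0.33 ± 0.09, 0.0134) and Mmp16 (−0.28 ± 0.08, 0.0189) fell. Timp2 was also higher in Q175_TyrobpKO than in TyrobpKO, by 0.40 ± 0.06 (5.95e-05).

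Lcn2 encodes lipocalin-2, a secreted carrier of iron-binding siderophores and a marker of strongly reactive astrocytes. It had 82 reads in all 24 libraries together and was under the filter (ENSMUSG00000026822, chr2:32384633-32388252). Q175_TyrobpKO held 34 of these reads, Q175 20, WT 17 and TyrobpKO 11. In 4 libraries it had a count of 0, which allows up to 3 counts, or 0.103 to 0.114 CPM. The highest library, a Q175_TyrobpKO male, was at 0.452 CPM. Exact 2-sided permutation tests over the 924 splits gave p from 0.104 to 0.764 in 5 comparisons, and Benjamini-Hochberg adjusted p from 0.519 to 0.764. A change in Lcn2 was not detectable at this depth. Slc22a17, which encodes a receptor for lipocalin-2, rose by 0.25 ± 0.06 in Q175 against WT (edgeR adjusted p = 0.0126) and by 0.37 ± 0.06 in Q175_TyrobpKO against TyrobpKO (0.000467).

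Cp encodes ceruloplasmin, a copper-carrying ferroxidase held on astrocytes by a lipid anchor (ENSMUSG00000003617, chr3:19957054-20009145, plus strand). It ranged from 12.2 to 17.8 CPM in WT (median 13.5), 11.3 to 16.2 in TyrobpKO (13.9), 11.2 to 16.4 in Q175 (13.1) and 10.6 to 14.9 in Q175_TyrobpKO (11.8). The genotypes overlapped, and Q175 against WT gave −0.11 ± 0.11 (edgeR adjusted p = 0.616). Cp and Hps3, on the other strand, share 108 of the 9566 exonic bases of Cp. Steap4, a metalloreductase of iron and copper, was at 0.0367 to 0.965 CPM over the 24 libraries, with 194 reads in all (ENSMUSG00000012428, chr5:7960457-7982213). Its genotype means lay between 0.270 and 0.293 CPM, and the errors of its log2 changes were 0.62 to 0.66 in the 5 comparisons of genotypes. Of 15 tested iron and copper genes, Slc22a17 alone was called in Q175 against WT, beside 9.63% of all tested genes. Fth1, ferritin heavy chain, fell in Q175_TyrobpKO against TyrobpKO (−0.39 ± 0.10, edgeR adjusted p = 0.0244), where 5.86% of all tested genes were called.

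Among the receptors, Osmr encodes the chain that pairs with gp130 to receive oncostatin M (ENSMUSG00000022146, chr15:6813577-6874969). It ranged from 3.67 to 5.12 CPM in WT (median 4.31), 3.10 to 6.28 in TyrobpKO (3.97), 3.87 to 7.92 in Q175 (5.08) and 2.15 to 4.98 in Q175_TyrobpKO (3.87). All genotypes overlapped. The log2 change was 0.28 ± 0.20 in Q175 against WT (edgeR adjusted p = 0.427) and −0.47 ± 0.20 in Q175_TyrobpKO against Q175 (unadjusted p = 0.0252, edgeR adjusted p = 0.818). Of 18 listed genes of gp130 cytokine and STAT3 signalling, 15 were tested. None was called in Q175 against WT or in Q175_TyrobpKO against Q175, beside 9.63% and 0.158% of all tested genes. Their median log2 change was 0 and −0.01 in those comparisons. Il11ra1, the interleukin-11 receptor, fell by 0.35 in Q175_TyrobpKO against TyrobpKO (edgeR adjusted p = 0.00861). Jak2, of the same list, was at −0.29 ± 0.08 in Q175_TyrobpKO against WT (edgeR adjusted p = 0.0240).

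Cd44 encodes a receptor for hyaluronan and osteopontin (ENSMUSG00000005087, chr2:102811141-102901665). It ranged from 1.91 to 3.09 CPM in WT (median 2.20), 2.39 to 3.38 in TyrobpKO (2.56), 2.30 to 3.80 in Q175 (2.90) and 1.60 to 2.97 in Q175_TyrobpKO (2.26). The highest value of the 24 was in Q175 and the lowest in Q175_TyrobpKO, but the genotypes overlapped. The changes were 0.39 ± 0.17 in Q175 against WT (edgeR adjusted p = 0.170) and −0.37 ± 0.17 in Q175_TyrobpKO against Q175 (0.827). The interaction term was −0.59 ± 0.24, with an unadjusted p of 0.0229 and an edgeR adjusted p of 0.999. Among 7 tested genes of hyaluronan turnover and osteopontin, Hyal2, a hyaluronidase, rose with Q175 whether Tyrobp was intact (0.40 ± 0.11, edgeR adjusted p = 0.0189) or deleted (0.42 ± 0.11, 0.0221).

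S1pr3 encodes a receptor for sphingosine 1-phosphate (ENSMUSG00000067586, chr13:51408639-51422797). It ranged from 4.63 to 6.87 CPM in WT (median 5.23), 4.96 to 7.42 in TyrobpKO (6.25), 4.91 to 6.93 in Q175 (6.04) and 4.76 to 8.51 in Q175_TyrobpKO (6.49). The genotypes overlapped, and edgeR called no comparison over both sexes. Within males, Q175_TyrobpKO was at 6.34 to 8.51 CPM against 4.63 to 5.37 in WT. The log2 difference was 0.66 ± 0.16 (edgeR adjusted p = 0.0177), beside 796 of the 19667 tested genes called in males. In females the difference was −0.04 ± 0.16 (0.951). The difference between the sexes was −0.71 ± 0.23 (female minus male) with an unadjusted p of 0.00541, and edgeR did not call it over all genes (adjusted p = 1.0). S1pr1, the receptor of the same family that is abundant in astrocytes and endothelium, fell by 0.23 in Q175 against WT (edgeR adjusted p = 0.0274) and by 0.32 in Q175_TyrobpKO against TyrobpKO (0.00417).

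**Figure D2:**
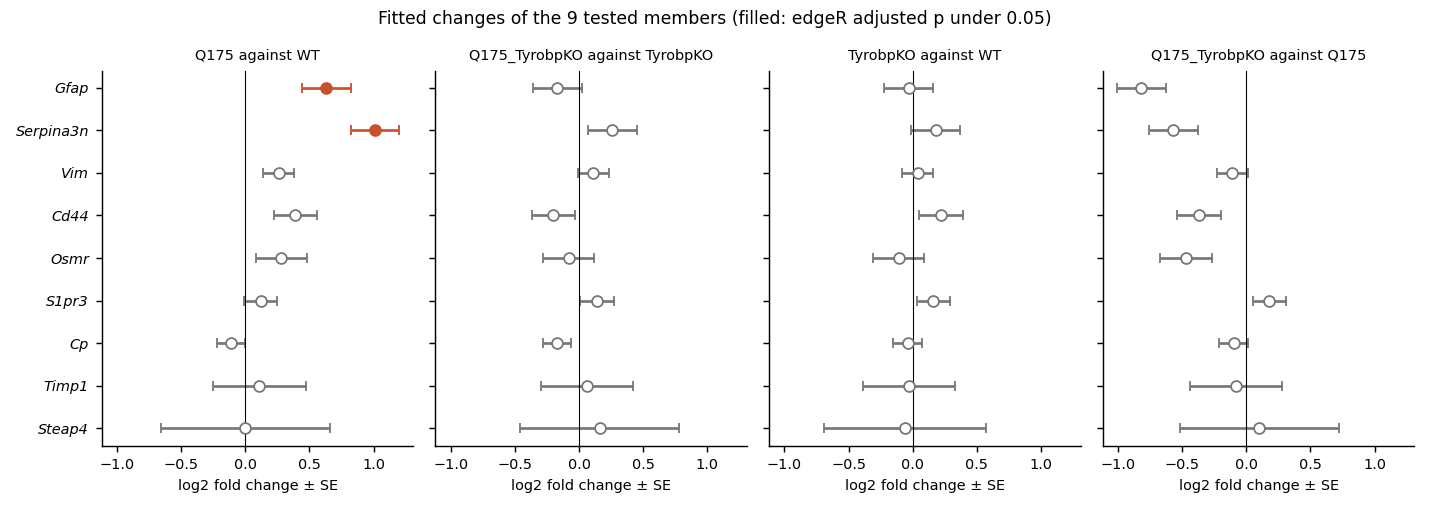
Log2 fold changes of the 9 tested genes with standard errors in 4 comparisons of genotypes, from the edgeR fit over 24 libraries. Filled points passed an adjusted p under 0.05: only Gfap (0.63) and Serpina3n (1.01) in Q175 against WT.

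Tyrobp deletion alone was not accompanied by a called change in any of the 9 tested genes. In TyrobpKO against WT none was called by edgeR, DESeq2 or limma-voom and 0 had an unadjusted p under 0.05, beside 0.117% of all tested genes called by edgeR. In Q175_TyrobpKO against Q175, edgeR called 0 of 9 beside 0.158% of all genes, while 4 (Gfap, Serpina3n, Cd44 and Osmr) had an unadjusted p under 0.05, all with lower levels in Q175_TyrobpKO. DESeq2 and limma-voom each called 1, Gfap. The median change of the 9 was −0.11, with 2 above 0, beside −0.001 over all genes.

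With Tyrobp deleted, the Q175 allele gave no call among the 9. In Q175_TyrobpKO against TyrobpKO 0 were called by edgeR, DESeq2 or limma-voom and 0 had an unadjusted p under 0.05, beside 5.86% of all genes called. In Q175_TyrobpKO against WT, 0 were called by any of the 3 tools, beside 9.44% of all genes, and Serpina3n and S1pr3 had an unadjusted p under 0.05. The interaction was not called for any gene of the 19667 by edgeR, although 707 had an unadjusted p under 0.05, Gfap, Serpina3n and Cd44 among them. A call in one Tyrobp genotype and none in the other is therefore not shown to be a difference between them. Between females and males 0 of the 9 were called by any of the 3 tools or had an unadjusted p under 0.05, beside 0.0814% of all genes called by edgeR.

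Other genes listed as linked to reactive astrocytes are given beside the share of all tested genes called in Q175 against WT, 4.15% higher and 9.63% in either direction. With lists this short, counts of 0 or 1 are near those shares. Among 12 tested genes of the neuroinflammation-type list, which holds C3, H2-D1 and Serping1, 0 were called higher and 1 lower in Q175 against WT, with a median of 0.08. The gene called was Fbln5, an elastic fibre protein, which fell from 8.44 ± 1.46 CPM in WT to 4.40 ± 1.28 in Q175 (log2 −0.92 ± 0.19, edgeR adjusted p = 0.00176), without overlap. Among 10 tested genes of the ischaemia-type list, which holds Clcf1, Ptx3 and S100a10, 0 were called in Q175 against WT and the median was 0.25. S100a10, an annexin partner, fell in Q175_TyrobpKO against TyrobpKO (−0.64 ± 0.17, edgeR adjusted p = 0.0272). Of the pan-reactive genes Hspb1, Cxcl10 and Aspg, 0 were called in Q175 against WT, where 1 of the 3 was above 0 and the median was −0.43. Hspb1, a small heat shock protein, fell in Q175_TyrobpKO against WT (−0.63 ± 0.20, edgeR adjusted p = 0.0419).

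Part of the homeostatic astrocyte genes fell in carriers of the Q175 allele, with Tyrobp intact and with it deleted. Of 20 tested, 1 was called higher and 5 lower in Q175 against WT, with a median of −0.13, beside 9.63% of all tested genes called. In Q175_TyrobpKO against TyrobpKO 0 were called higher and 5 lower, with a median of −0.20, beside 5.86% of all tested genes. Slc1a2, the main glutamate transporter of astrocytes, fell by 0.37 (log2) in Q175 against WT with an edgeR adjusted p of 0.000162, and Glul, glutamine synthetase, fell by 0.41 (0.000177). S100b, a calcium-binding protein, rose by 0.39 ± 0.10 (0.0123). The summed level of the 20 genes was 6247 to 7051 CPM in the 12 carrier libraries and 7545 to 8987 CPM in the 12 others, without overlap. In Q175_TyrobpKO against Q175, 0 of the 20 were called and the median was −0.02. Markers of some other cells also differed between these groups. All 10 striatal projection neuron markers were called lower in Q175 against WT (median −0.82) and 6 of 10 in Q175_TyrobpKO against TyrobpKO (median −0.58), and their summed level was 4255 to 6808 CPM in carriers and 7230 to 12192 CPM in the others. Of 12 endothelial markers, 2 were called lower in the first comparison (median −0.18) and 3 in the other (median −0.26), with sums of 214 to 290 CPM in carriers and 262 to 309 CPM in the others. Of 10 mature oligodendrocyte markers, 0 were called in the first comparison (median −0.08) and 3 were called lower in the other (median −0.30). All 12 choroid plexus markers were above 0 in both comparisons (medians 3.16 and 1.82), with 3 called higher in the first and 0 in the other. The part of these cells in the astrocyte values was not tested. In whole tissue, fewer cells of a type and less RNA per cell cannot be told apart.

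**Figure D3:**
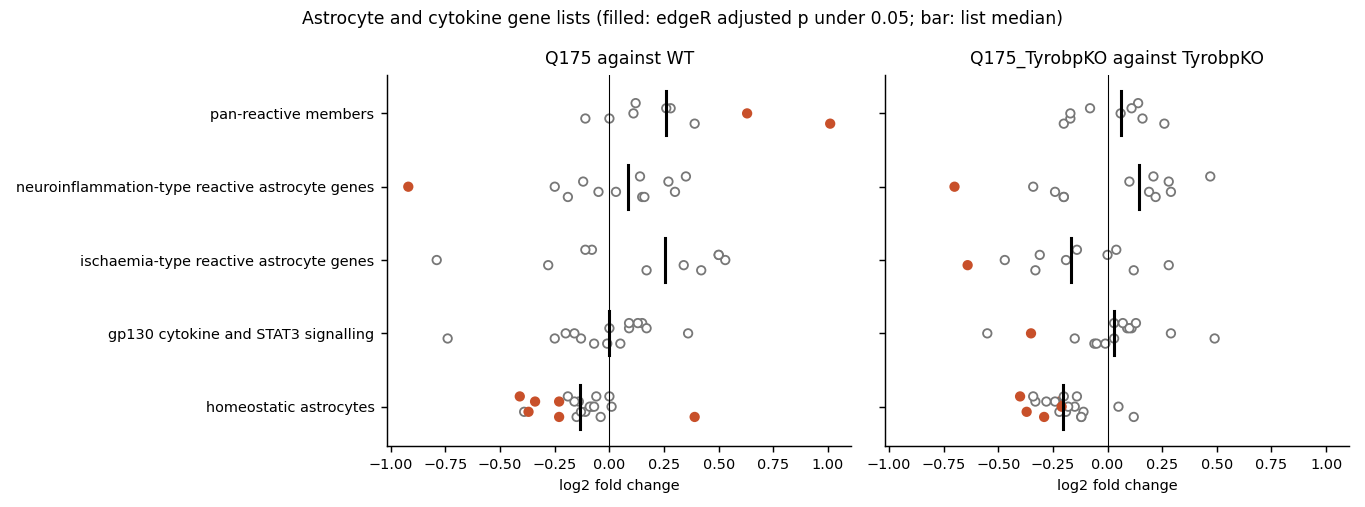
Log2 fold changes of the tested genes of 5 lists in Q175 against WT (left) and Q175_TyrobpKO against TyrobpKO (right), with a point per gene, filled where edgeR called it, and a bar at the list's median. The homeostatic list has a median of −0.13 on the left and −0.20 on the right, beside 0.26 and 0.06 for the 9 tested reactive genes.

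Genes of microglia, whose products can induce the reactive state, are given beside these values. The summed level of 10 microglial markers spanned 351 to 405 CPM for Q175, 311 to 368 for Q175_TyrobpKO, 335 to 391 for WT and 285 to 392 for TyrobpKO. No marker of the 10 was called in Q175 against WT or in Q175_TyrobpKO against Q175, beside 9.63% and 0.158% of all tested genes. The medians there were 0.04 and −0.23, and all 10 were below 0 in the latter. All 10 were also below 0 in Q175_TyrobpKO against TyrobpKO (median −0.08) and in TyrobpKO against WT (−0.09). In TyrobpKO against WT, Gfap changed by −0.03 ± 0.19 and Serpina3n by 0.18 ± 0.19. Among the 6 tested inducers and receptors, which include C1qa, C1qb and Tnfrsf1a, C1qb, a chain of complement C1q, fell in Q175_TyrobpKO against Q175 (−0.39 ± 0.08, edgeR adjusted p = 0.0221). The median of the 6 was −0.28 there, with 0 above 0. In TyrobpKO against WT their median was −0.29, with 2 above 0 and 0 called. The part of microglia in the Gfap and Serpina3n values was not tested.

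Within genotype and sex, Gfap varied with myelin genes. Residual correlations were taken over the 24 libraries after removing the means of genotype and sex, with 100000 permutations within these groups. Of 99 correlations between the 9 genes and 11 cell type lists, a family added after the values were seen, 1 passed Benjamini-Hochberg adjustment by both Pearson's r and Spearman's rho: Gfap with the 10 mature oligodendrocyte genes, which include Mbp and Mog (r = 0.847, permutation p = 7e-05, adjusted 0.00693; rho = 0.843, permutation p = 0.00011, adjusted 0.0109). Without the 2 libraries farthest from the median, r was 0.831 and rho 0.808. Gfap with the homeostatic astrocyte list gave r = 0.353 (permutation p = 0.132, adjusted 0.481; rho = 0.348, permutation p = 0.123, adjusted 0.508). A list of blood genes was not used, since 5 of its 12 genes passed the filter.

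The genotypes overlapped in the summed level of the myelin list. It spanned 8312 to 12306 CPM for Q175, 8107 to 10911 for Q175_TyrobpKO, 8985 to 14574 for WT and 9952 to 14706 for TyrobpKO. None of its 10 genes was called in Q175 against WT or in Q175_TyrobpKO against Q175, and its medians there were −0.08 and −0.03. Of 4 settings added after the values were seen, 1 took the mean of this list as a covariate. Gfap was then at 0.74 in Q175 against WT (edgeR adjusted p = 3.15e-05) and at −0.81 in Q175_TyrobpKO against Q175 (8.14e-05). The other 3 settings did not give a call for Gfap in Q175_TyrobpKO against Q175, and 2 of them, both on choroid plexus markers, ended its call in Q175 against WT as given above. The covariate was chosen because of its correlation with Gfap in these libraries and is no independent evidence.

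**Figure D4:**
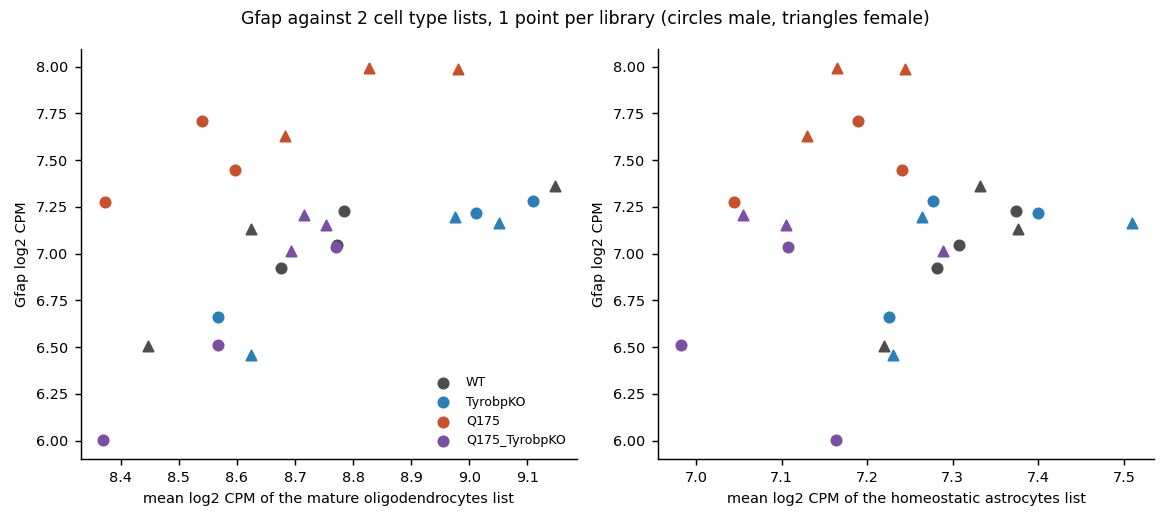
Gfap (log2 CPM) in each of the 24 libraries against the mean log2 CPM of the myelin list (left) and of the homeostatic astrocyte list (right), with colours for genotype, circles for males and triangles for females. Q175 libraries lie above the others at like values of the myelin list, and within genotype and sex the residual correlation was 0.847.

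Among the 36 pairs of the 9 genes, 20 residual correlations were above 0 and 1 passed adjustment by Pearson's r, Osmr with Cp (r = 0.598, permutation p = 0.0012, adjusted 0.0432; rho = 0.631, permutation p = 0.00283, adjusted 0.0509). Without the 2 farthest libraries its r was 0.573. Gfap with Vim gave r = 0.641 (permutation p = 0.00454, adjusted 0.0817; rho = 0.691, permutation p = 0.00167, adjusted 0.0509). Gfap with Serpina3n gave r = 0.630 (permutation p = 0.0099, adjusted 0.119; rho = 0.610, permutation p = 0.0136, adjusted 0.163). The median r over the 36 pairs was 0.011.

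The genes most like each of these across the 24 libraries, by Spearman's rho of log2 CPM with genotype differences included, are given as a description. Gfap was most like Lamp1 (0.810), Ly86 (0.783) and Cd9 (0.753). Serpina3n was most like Slc39a9 (0.847), Gm4349 (0.844) and Atic (0.823), and its rho with Gfap was 0.727. Cp was most like Adam17 (0.838), F3 (0.836) and Timp3 (0.777). Osmr was most like Tgfbr2 (0.783), Atp13a4 (0.783) and Cckar (0.782). Vim was most like Stard13 (0.789), Cd44 like Ermp1 (0.730), S1pr3 like Rcor3 (0.845), Timp1 like Mgmt (0.830) and Steap4 like Gm26805 (0.636). Library and depth are shared by all genes of a sample.

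**Figure D5:**
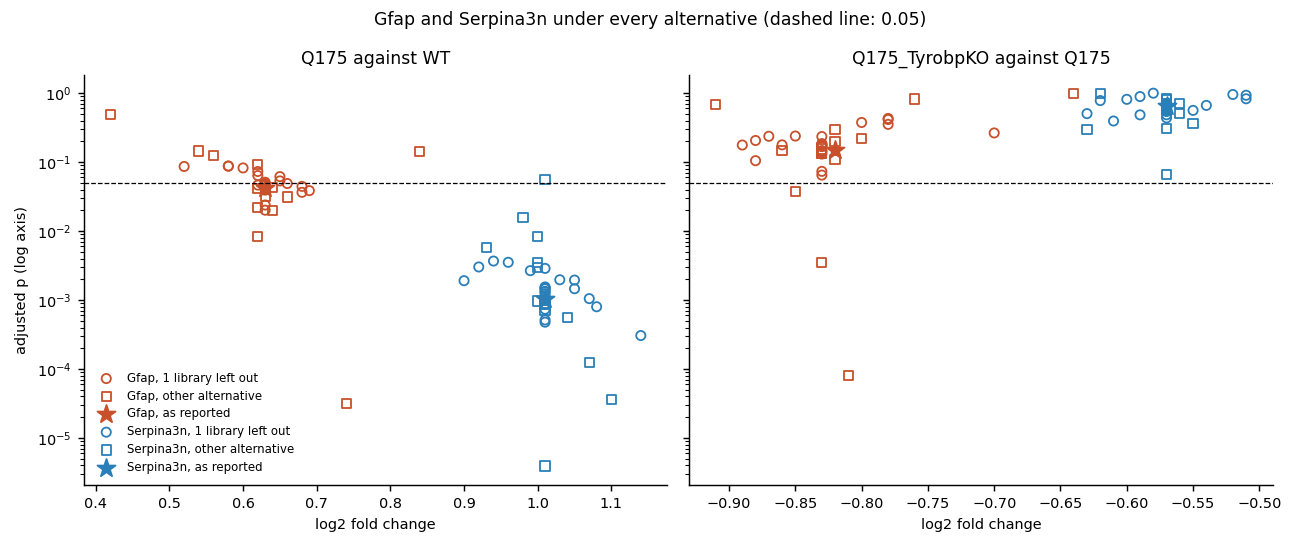
Adjusted p (log axis) against the log2 fold change of Gfap and Serpina3n, for Q175 against WT (left) and Q175_TyrobpKO against Q175 (right), under each way of processing the counts, with stars for the values reported and a dashed line at 0.05. Serpina3n in Q175 against WT stays under 0.05 in each setting except females only (0.0562), while Gfap lies on both sides of 0.05.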

How the data were processed

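RNA was sequenced from the striatum of a single hemisphere of 24 mice, per the labels' protocols. The authors deposited raw read counts per gene, whole numbers with no normalization. The submitters' processing notes name STAR, featureCounts and DESeq2, without their roles, and the human build GRCh38. The gene identifiers are mouse, and the deposited coordinates of all 10 genes equal those of GENCODE M21 on GRCm38. The sources used here do not say whether counting used strand.

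The counts were tested with edgeR 4.0.16 in R 4.3.3, by the quasi-likelihood test with a robust fit, TMM scaling and filterByExpr, over all 24 libraries with genotype means and sex as terms. Adjusted p are Benjamini-Hochberg over the 19667 genes tested, and a gene was called under 0.05. Log2 fold changes come with standard errors. A fit with a mean per genotype and sex gave the sex-specific values. Counting precision followed from totals of 25.5 to 34.6 megacounts per library, and limits from a count of 0 cover that error alone. Within genotypes, the 60 pairs of libraries were compared by a chi-square over genes with at least 30 reads: its mean per gene was at least 7.23, so each library was counted. Replicate numbers only name libraries, and no pairing was used. The statistics were checked on simulated data.

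The 10 genes and the 23 other gene lists were chosen with earlier results of these data known. Named from each other list were its called genes, at most 4 by smallest p, and for each tested gene the 3 genes of highest rho. Alternatives were RLE and upper-quartile scaling, DESeq2 1.42.0, limma-voom (limma 3.58.1), 2 other filters, no sex term, only the libraries compared, each sex alone and leaving out each library. Another 4 settings and the correlations with cell type lists were added after the data were seen. Every per-sample column of the table was used.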

Additional observations from a re-analysis of the deposited data

Results flagged for a closer look

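Levels of the 10 genes in the 4 genotypes gave 40 groups of 6 libraries, and in 3 of them 1 library stood apart from the other 5 by more than Dixon's 95% critical value of 0.625. Chance sets about 1 in 20 groups apart in this way. Cd44 in TyrobpKO replicate 5 was at 3.38 CPM, with the next library at 2.75 CPM, a gap of 0.636 of the group's range. Osmr in the same library, TyrobpKO replicate 5, was at 6.28 CPM, with the next at 4.11 CPM and a gap of 0.682 of the range. Steap4 in Q175 replicate 3 was at 0.965 CPM, with the next at 0.331 CPM and a gap of 0.708 of the range. That library was also the one with 4274 CPM of choroid plexus markers. The part of choroid plexus RNA in the Steap4 value was not tested.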

How the results depend on the processing

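No paired analysis was possible because the labels carry no shared replicate numbers. Gfap in Q175 against WT, 0.63 on the log2 scale, lost its call with no filter on low counts (0.62), in males only (0.42), in females only (0.84), with the choroid plexus list as covariate (0.56) and without the 5 libraries over 200 CPM of that list (0.54). Leaving out each library gave 0.52 to 0.69. Gfap in Q175_TyrobpKO against Q175 gained a call by DESeq2 (−0.83), by limma-voom (−0.85) and with the myelin list as covariate (−0.81), and in none of the other settings. Leaving out each library gave −0.89 to −0.70. Serpina3n in Q175 against WT lost its call in females only (1.01, adjusted p = 0.0562), and its other alternatives kept it. Serpina3n in Q175_TyrobpKO against Q175 was called in none, with edgeR, DESeq2 or limma-voom adjusted p from 0.0659 to 1.0. Serpina3n in Q175_TyrobpKO against WT was called with the myelin covariate (0.55), and S1pr3 in that comparison in males only (0.67).

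Of 2337 estimates of the 9 genes under an alternative, 170 differed in sign from the value reported, and in 4 of these the reported value was larger than its standard error. These were Gfap in Q175_TyrobpKO against WT in females only (0.08), Serpina3n in Q175_TyrobpKO against TyrobpKO in males only (−0.15), and S1pr3 in females only in TyrobpKO against WT (−0.16) and in Q175_TyrobpKO against WT (−0.05). The limit of 1 standard error was set after the count was known.

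Counts of called genes moved by over 1.5 times in few settings. In males only they were 759 in Q175 against WT, 65 in TyrobpKO against WT, 11 in Q175_TyrobpKO against Q175, 104 in Q175_TyrobpKO against TyrobpKO and 752 in Q175_TyrobpKO against WT. In females only they were 187, 8, 11, 290 and 240. Without the 5 libraries they were 1130, 9, 287 and 837 where they moved, in Q175 against WT, Q175_TyrobpKO against Q175, Q175_TyrobpKO against TyrobpKO and Q175_TyrobpKO against WT, beside 1893, 31, 1153 and 1857 as reported. DESeq2 called 52 in Q175_TyrobpKO against Q175. For the interaction, with 0 calls reported and 707 genes at an unadjusted p under 0.05 by edgeR, DESeq2 called 2, limma-voom 1 and the cortical neuron covariate 2. Leaving out each library gave 1416 to 1986, 18 to 23, 24 to 46, 809 to 1218, 1353 to 1988 and, for the interaction, 0 to 2. The settings by sex, without the 5 libraries or without 1 library hold fewer libraries, while DESeq2, limma-voom and the covariate used all 24. Beyond that the cause was not tested. Depth limits Lcn2 and Steap4.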
